A study of Mus musculus with 2 samples.

Results

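The interleukins and their receptors were described in GFP+ cells of the stromal vascular fraction of mouse inguinal white fat. The members are the 63 genes, of 24862 listed, whose name begins with Il and a number, leaving out Il4i1, which encodes an enzyme. They divide into 21 ligand genes, 37 genes for receptor chains and 5 genes for antagonists, binding proteins and decoy receptors. The choice used names alone and no measured value. PolyA RNA was sequenced as 1 library per genotype, Sox9 floxed (titled WT) and Sox9 PreASKO (titled KO). All mice were males of 3 weeks that had been given doxycycline at postnatal day 1, in the floxed group as in the PreASKO group. The design text treats GFP+ as meaning Pref-1+ and pools mice with n = 6, without saying whether that number holds per genotype. The labels do not name the promoter that drives the deletion, and with 1 pooled library per genotype no difference below has a replicate check or a test.

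Interleukins are secreted signals by which leukocytes, stromal cells and endothelial cells act on each other. Most bind receptors built of a chain particular to the ligand and a chain shared by several ligands, and signal through JAK kinases and STAT factors. The IL-1 and IL-17 families instead signal through adaptors that lead to NF-kB. In white fat, IL-33 from stromal cells is known to sustain innate lymphoid cells and regulatory T cells that carry its receptor ST2, and IL-4 and IL-13 act on macrophages and on adipocyte precursors.

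Total counts were 37705236 for floxed and 29172653 for PreASKO. Members took 58408 and 49109 of them, or 1549 and 1683 CPM, the count scaled to the library total. Sox9 itself had 228 counts in the floxed and 73 in the PreASKO library, a ratio of 0.414. Here and below a ratio is PreASKO over floxed CPM, and a range in parentheses is an exact 95% interval that covers counting error only. Dlk1, the Pref-1 gene, stood at 28.2 and 24.0 CPM. Ptprc, which encodes the leukocyte protein CD45, stood at 205 and 264 CPM, so RNA of leukocytes was present in both libraries beside that of stroma. All 19 adipose precursor and stromal markers had a ratio below 1, and their summed level was 47674.1 CPM in floxed and 27552.1 CPM in PreASKO. All 17 macrophage markers had a ratio above 1, with sums of 14346.5 and 21352.2 CPM and none at 0 counts. The part of these shifts in the interleukin values was not tested, and in bulk RNA fewer cells of a type and less RNA per cell cannot be told apart.

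Most interleukin and receptor genes differed by less than 2-fold between the libraries. Those past that limit were more often lower in PreASKO, and the same held over all genes. Of the 63 members, 56 had 20 or more counts over both libraries. Of these 56, 6 were higher in PreASKO by 2-fold or more, which is 10.7%, against 7.79% of all 17721 genes with as many counts. Another 11 were lower by 2-fold or more, which is 19.6%, against 15.2% of all genes. The median log2 ratio was -0.59 over 16 ligands, -0.14 over 35 receptor chains and -0.17 over 5 antagonists and decoys, beside -0.05 over all genes. Of 44 members with 100 or more counts, 4 were higher, which is 9.09%, against 4.03% of all such genes, and 6 were lower, which is 13.6%, against 8.44%. The members nearest the limit were Il10ra at 2.07 and Il1a at 1.94 on the high side, and Il1rl2 at 0.497 and Il17re at 0.534 on the low side. Scaling to the median of the stromal markers gave 20 members higher and 4 lower, against 35.1% and 8.08% of all genes. Scaling to the macrophage markers gave 3 higher and 22 lower, against 4.49% and 29% of all genes.

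**Figure D1:**
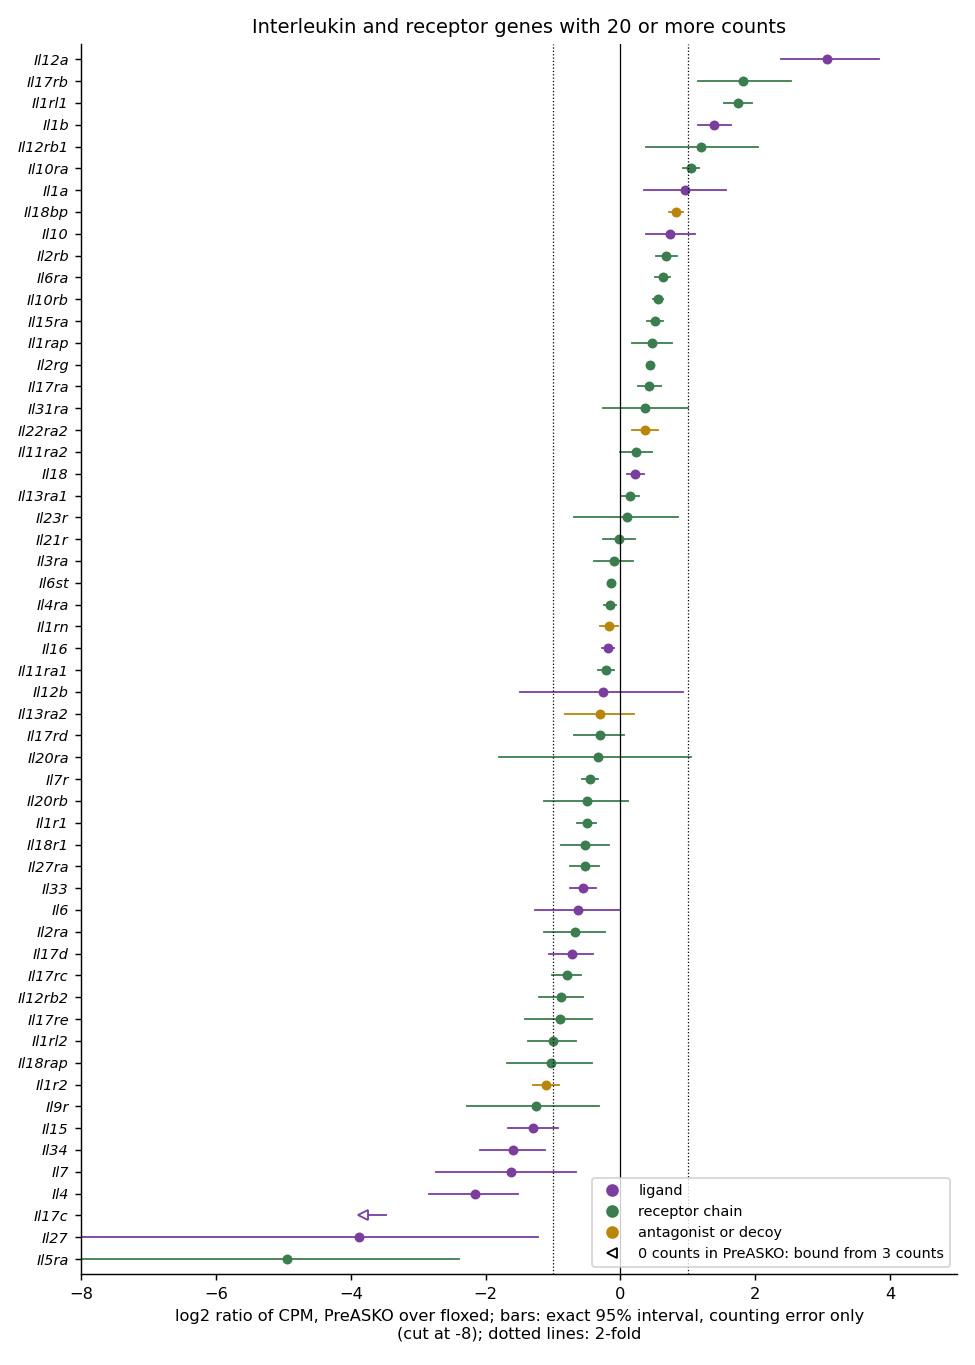
log2 ratio of CPM, PreASKO over floxed, for each of the 56 interleukin and receptor genes with 20 or more counts, coloured by role, with exact 95% intervals for counting error and dotted lines at 2-fold. Il12a stands highest at 3.07 and Il5ra lowest at -4.95, and 39 of the 56 genes lie inside the dotted lines.

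Among ligands of the IL-1 family, the agonists Il1b and Il1a were higher in PreASKO and the alarmin Il33 was lower, though Il33 turned to higher when libraries were scaled to the stromal markers, at a log2 ratio of 0.27. Il1b, whose product is cleaved to the fever-inducing cytokine IL-1 beta, had 201 counts in floxed and 408 in PreASKO. Its ratio was 2.62 (2.21 to 3.12). Il1a, which encodes the cell-associated form of IL-1, had 40 and 60 counts, a ratio of 1.94 (1.28 to 2.97). Il18, an inducer of interferon gamma, had 1070 and 962 counts and hence similar levels, 28.4 and 33.0 CPM. Il33 went the other way, from 670 to 352 counts, a ratio of 0.679 (0.595 to 0.774). The intervals of these 4 ratios all leave out 1, so each difference in CPM is larger than counting error if the summed counts are taken as plain counts. Most of them were repeat-distributed estimates, whose own error the intervals leave out. Raw counts made up 2.79% for Il1b, 4% for Il1a, 22.9% for Il18 and 0% for Il33. The few raw counts of Il1b went against its sum, with 12 in floxed and 5 in PreASKO. Scaled to the macrophage markers, Il18 turned to lower, at a log2 ratio of -0.33.

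The proteins that restrain this family did not move as a block. Il1rn, the receptor antagonist that competes with IL-1, had 1022 counts in floxed and 703 in PreASKO, a ratio of 0.889 (0.806 to 0.980). With raw counts alone, 5.16% of its counts, Il1rn turned to higher, at a log2 ratio of 0.45. Il1r2, the decoy receptor that binds IL-1 without signalling, had 892 and 321 counts. It was 2.15-fold lower in PreASKO (1.89 to 2.45). Il18bp, which neutralises IL-18, was the most abundant of the 5 antagonists and decoys per kilobase of exon, and was higher in PreASKO. It had 1480 and 2025 counts, a ratio of 1.77 (1.65 to 1.89). Ratios of counts between a pair of genes in the same library do not depend on how libraries are scaled. The count of Il1b was 0.197 of that of Il1rn in floxed and 0.580 in PreASKO, a 2.95-fold change (2.42 to 3.60). That of Il18 over Il18bp went from 0.723 to 0.475, and that of the signalling receptor Il1r1 over the decoy Il1r2 from 1.30 to 1.97. By summed counts, agonist thus gained on antagonist for IL-1 beta and lost for IL-18 in these libraries. The gain for IL-1 beta rests on repeat-distributed counts. Raw counts went the other way, from 12 in floxed to 5 in PreASKO for Il1b, beside 44 and 45 for Il1rn. Of 14 neutrophil markers, whose cells are known to make IL-1 beta, 11 of 12 with enough counts had a ratio above 1, with summed levels of 250.3 and 491.8 CPM. Ly6g, which defines neutrophils, had only 4 and 6 counts. Macrophages also make IL-1 beta, and their markers are given above. Scaled to the macrophage markers, Il1b came inside the 2-fold limit, at a log2 ratio of 0.84. The part of neutrophils in the Il1b value was not tested.

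Ligands of the common gamma chain receptors were lower in PreASKO wherever they had enough counts. Il4, the T helper and mast cell cytokine, had 138 counts in floxed and 24 in PreASKO, which is 4.45-fold lower (2.87 to 7.18). Il7, a survival factor for lymphocytes made by stroma, had 44 and 11 counts, 3.09-fold lower (1.57 to 6.64). Il15, which sustains natural killer and memory T cells, had 263 and 83 counts, 2.45-fold lower (1.91 to 3.18). All 3 passed the 2-fold limit, and all are low genes, with at most 6.98 CPM in either library. Scaled to the stromal markers, Il7 and Il15 came inside the limit, at log2 ratios of -0.80 and -0.47. Il7 also did so with repeat-distributed counts alone and with a pseudocount of 1. The counts of Il15 were all repeat-distributed, those of Il4 mostly raw. Il21, also of this group, stayed under 20 counts, with 4 and 6. Outside this group, Il13, whose product shares the chain Il4ra with IL-4, had 4 and 0.

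Il34, Il17c and Il27 were the other ligands past the 2-fold limit downwards. Scaled to the stromal markers, Il34 came inside it, at a log2 ratio of -0.77. It encodes a second ligand of the macrophage receptor CSF1R beside CSF1, and is known from skin and brain. It had 187 counts in floxed and 48 in PreASKO, 3.01-fold lower (2.18 to 4.23). The receptor gene Csf1r stood at 1620 and 2564 CPM and the ligand gene Csf1 at 39.2 and 28.5 CPM. Il17c, an epithelial cytokine, had 55 counts in floxed and 0 in PreASKO. Against 3 counts, the floor of the PreASKO library, it was at least 14.2-fold lower with its 55 counts taken as exact, and the interval that also covers their counting error begins at 11.2-fold. Of 13 mesothelial and epithelial markers, all 11 with enough counts had a ratio below 1, with summed levels of 184.9 and 5.52 CPM. Their part in the Il17c value was not tested. Il17d, which belongs to the same family, had 248 and 116 counts, a ratio of 0.605 (0.481 to 0.757). Il27, which encodes the p28 subunit of IL-27, had 19 and 1 counts, 14.7-fold lower (2.34 to 611), and sits on the minimum of 20 counts. Il6, the acute-phase cytokine, had 68 and 34 counts and stayed inside the limit.

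Il12a was the ligand that differed most upwards. It encodes p35, the subunit that forms IL-12 with p40 and IL-35 with EBI3. It had 20 counts in floxed and 130 in PreASKO, a ratio of 8.40 (5.22 to 14.2). The partner gene Il12b, for p40, had 17 and 11 counts, and Ebi3, the other partner, had 637 and 726. The p35 gene thus stood apart from the genes of both partners. The count of Il12a over Il12b went from 1.18 to 11.8, a 10.05-fold change (3.75 to 27.1). The counts of Il12a were all repeat-distributed and those of Il12b all raw, so this ratio sets unlike kinds of count against each other. Il10, an anti-inflammatory cytokine, had 113 and 146 counts, a ratio of 1.67 (1.30 to 2.15). Il16, a chemoattractant for CD4+ cells, held 44.1% of ligand counts in floxed and 41.6% in PreASKO, with 2504 and 1707 counts and a ratio of 0.881 (0.828 to 0.937).

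**Figure D2:**
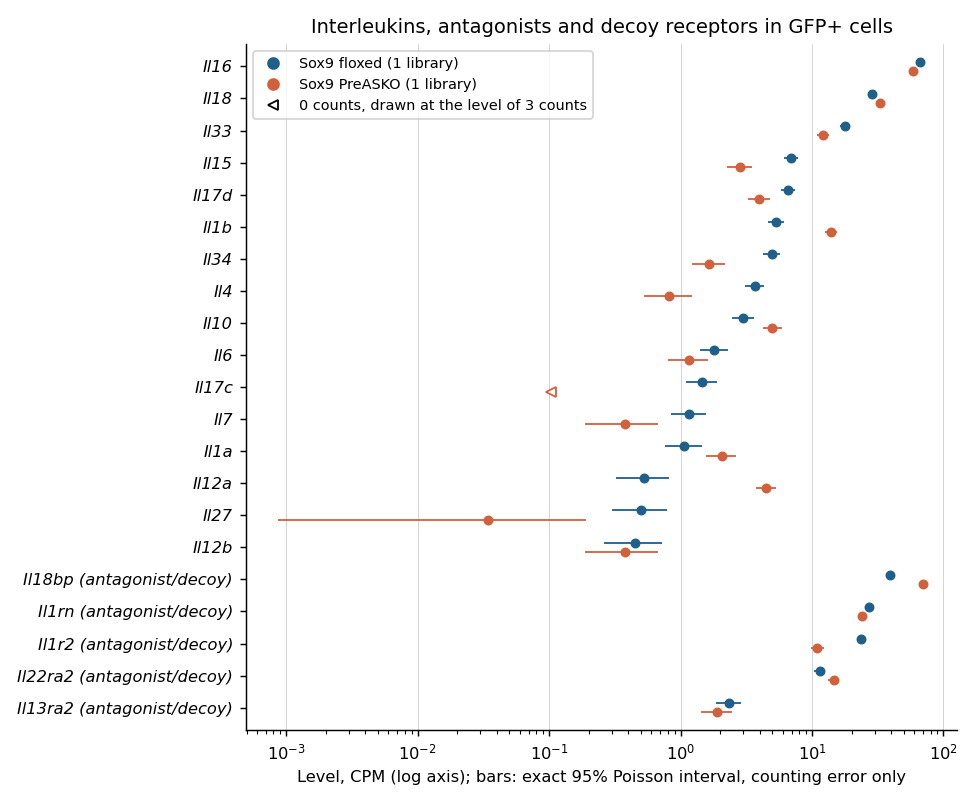
Level in CPM on a log axis of the 16 ligands and 5 antagonists and decoys with 20 or more counts, in the floxed and PreASKO libraries, with exact 95% Poisson intervals. Levels are to be compared within a gene, since they are not divided by gene length. Il12a and Il1b lie to the right in PreASKO, while Il4, Il34, Il15 and Il17c lie to the left, Il17c with 0 counts.

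Per kilobase of exon, shared receptor chains were the most abundant members. Il2rg, the gene of the common gamma chain, stood at 113 CPM per kb in floxed and 153 in PreASKO. Il6st, which encodes the shared chain gp130, followed with 45.7 and 41.6 CPM per kb, and Il10rb with 22.3 and 32.8. Il18 was the first ligand, at 27.5 and 32.0 CPM per kb. These 4 genes held the first 4 places in both libraries, though Il18 and Il10rb changed places. Among the 12 most abundant members of the floxed library, Il1r2 lost the most places, from 12.4 to 5.77 CPM per kb, place 6 in floxed and 18 in PreASKO. Il10ra moved the other way, from place 12 to place 6.

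Among receptors of the common gamma chain group, Il2rg, Il2rb and Il15ra were higher in PreASKO, and Il7r, Il2ra and Il9r lower, but scaling to the macrophage markers turned Il2rg and Il15ra, to log2 ratios of -0.12 and -0.03, and scaling to the stromal markers turned Il7r and Il2ra, to 0.38 and 0.15. Il2rg had 10203 counts in floxed and 10664 in PreASKO, a ratio of 1.35 (1.31 to 1.39). Il2rb, which serves IL-2 and IL-15, had 629 and 781 counts, a ratio of 1.60 (1.44 to 1.79). Il15ra, which presents IL-15 to other cells, had 1068 and 1181 counts, a ratio of 1.43 (1.31 to 1.55), against the lower level of Il15. The lower genes include those of the IL-7 receptor chain and of CD25, the high-affinity IL-2 receptor chain of regulatory T cells. Il7r had 1529 and 866 counts, a ratio of 0.732 (0.673 to 0.796). Il2ra had 128 and 62 counts, a ratio of 0.626 (0.455 to 0.854). Il9r, the IL-9 receptor, had 40 and 13 counts, 2.38-fold lower (1.25 to 4.85). The count of Il2ra over Il2rb went from 0.203 to 0.0794, and that of Il7r over Il2rg from 0.1499 to 0.0812. The counts of Il2ra were all raw and those of Il2rb all repeat-distributed, so their ratio sets unlike kinds of count against each other. Of 14 T cell markers, 8 had a ratio above 1 and 6 below, with summed levels of 168.4 and 179.5 CPM and none at 0.

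Receptors for IL-4 and IL-13 differed little. Il4ra, the chain common to both cytokines, had 2667 counts in floxed and 1853 in PreASKO, a ratio of 0.898 (0.846 to 0.953). With raw counts alone, 63.5% of its counts, Il4ra turned to a log2 ratio of 0.099. Its partner Il13ra1 had 1000 and 854 counts, a ratio of 1.10 (1.01 to 1.21). The decoy Il13ra2 had 88 and 55 counts, and the interval of its ratio, 0.566 to 1.14, holds 1. Il21r had 346 and 263 counts, a ratio of 0.982 (0.834 to 1.16). For the chains that pair with the beta common chain, Il3ra had 247 and 178 counts, a ratio of 0.931 (0.764 to 1.13). Il5ra, a marker of eosinophils and of some B cells, went from 40 counts to 1, a ratio of 0.0323 (0.000798 to 0.191). Of 7 eosinophil markers, 5 of the 6 with enough counts had a ratio above 1, with summed levels of 100.6 and 481.1 CPM. Most of each sum came from Alox15, at 50.9 and 372.8 CPM, and Ear2, at 45.4 and 100.2 CPM. Among them Siglecf had 17 and 5 counts, Ccr3 22 and 21, and Prg2 5 and 49, and Ear6 was at 0 in floxed. The part of eosinophils in the Il5ra value was not tested.

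In the gp130 group, the IL-6 receptor was higher by summed counts while gp130 itself was slightly lower. Scaling to the stromal markers turned Il6st to a log2 ratio of 0.69. Il6ra had 1256 counts in floxed and 1502 in PreASKO, a ratio of 1.55 (1.43 to 1.67). With raw counts alone, 1.74% of its counts, Il6ra stood at a log2 ratio of 0.05. Il6st had 19142 and 13467 counts, a ratio of 0.909 (0.889 to 0.930). The count of Il6ra over Il6st went from 0.0656 to 0.112, a 1.70-fold change (1.57 to 1.84). The counts of Il6st were all raw and those of Il6ra mostly repeat-distributed, so this ratio sets unlike kinds of count against each other. Il27ra had 531 and 284 counts, a ratio of 0.691 (0.596 to 0.800). Il11ra1, the IL-11 receptor, had 1491 and 990 counts and a ratio of 0.858 (0.791 to 0.931). Its close copy Il11ra2 had 314 and 285, all repeat-distributed as for Il11ra1. Reads may be split between these copies, which leaves both values uncertain. The kind of count does not show such a split, since 24 of the 63 members had repeat-distributed counts only.

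Both chains of the IL-10 receptor were higher, and the ligand-binding chain more so. Il10ra had 938 counts in floxed and 1505 in PreASKO, a ratio of 2.07 (1.91 to 2.25). Il10rb, which also serves IL-22 and the type III interferons, had 3206 and 3649 counts, a ratio of 1.47 (1.40 to 1.54). The count of Il10ra over Il10rb went from 0.293 to 0.412, a 1.41-fold change (1.28 to 1.55). Macrophages are known to carry this receptor, and the ratios of the 17 macrophage markers ran from 1.11 to 2.51. Scaled to them, Il10ra came inside the 2-fold limit, at a log2 ratio of 0.50. With repeat-distributed counts alone it stood at 0.93, also inside. Il22ra2, a soluble decoy for IL-22, had 431 and 428 counts, a ratio of 1.28 (1.12 to 1.47). Il22 itself had 5 and 3 counts.

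In the IL-12 group, Il12rb1, shared by the receptors of IL-12 and IL-23, had 21 and 37 counts, a ratio of 2.28 (1.30 to 4.09), and came inside the limit when scaled to the macrophage markers, at a log2 ratio of 0.64. Il12rb2 had 269 and 113 counts, a ratio of 0.543 (0.432 to 0.679). The annotation places 40.0% of the exon length of Il12rb2 over exons of Serbp1 on the other strand, an abundant gene with 25168 and 24783 counts. Whether counting used strand is not given in the sources used here, so reads of the pair may not have been told apart.

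The chains of the IL-17 receptors diverged. Il17rb, which pairs with Il17ra to bind IL-25, had 26 counts in floxed and 71 in PreASKO, a ratio of 3.53 (2.22 to 5.76). Il17ra, common to the family, had 549 and 572 counts, a ratio of 1.35 (1.20 to 1.52). Il17rc, its partner for IL-17A and IL-17F, had 607 and 270 counts, a ratio of 0.575 (0.496 to 0.665). Il17re, its partner for IL-17C, had 121 and 50 counts, a ratio of 0.534 (0.376 to 0.748). The shared chain and the IL-25 chain were thus higher and the other partner chains lower, but Il17ra turned to a log2 ratio of -0.12 with macrophage scaling and Il17rc to 0.03 with stromal scaling. Il17rd, known for restraining FGF signalling, had 162 and 101 counts, a ratio of 0.806 (0.622 to 1.04). The adaptor gene Traf3ip2, whose product Act1 serves all IL-17 receptors, had 555 and 149 counts, a ratio of 0.347 (0.288 to 0.416).

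**Figure D3:**
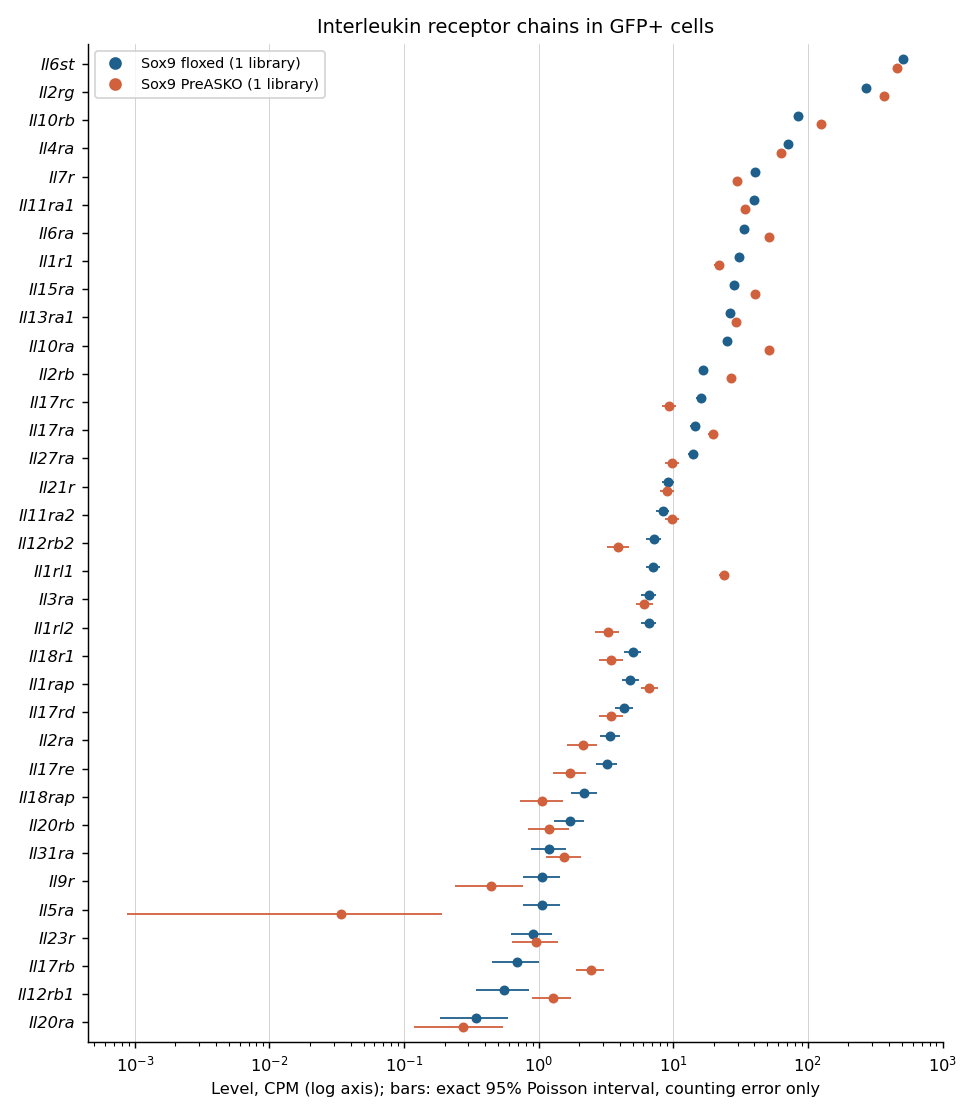
Level in CPM on a log axis of the 35 receptor chain genes with 20 or more counts, in the floxed and PreASKO libraries, with exact 95% Poisson intervals. Levels are to be compared within a gene. Il1rl1, Il17rb and Il10ra lie to the right in PreASKO, and Il5ra, with 40 counts in floxed and 1 in PreASKO, lies furthest to the left.

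The receptor genes of the IL-1 family showed a contrast between neighbours on chromosome 1. Here 6 of them lie in a row on the forward strand, in the order Il1r2, Il1r1, Il1rl2, Il1rl1, Il18r1 and Il18rap, from 40084692 to 40551707 in GRCm38. Il1rl1, which encodes the IL-33 receptor ST2, had 267 counts in floxed and 691 in PreASKO, a ratio of 3.34 (2.90 to 3.87). The other 5 genes of the row were lower, with ratios from 0.465 to 0.707, but Il1r1 and Il18r1 turned to log2 ratios of 0.33 and 0.30 when scaled to the stromal markers. Il1r1, the signalling receptor of IL-1, had 1158 and 633 counts, a ratio of 0.707 (0.640 to 0.779). Il1rl2, the IL-36 receptor, had 247 and 95 counts, a ratio of 0.497 (0.388 to 0.632). The chains of the IL-18 receptor, Il18r1 and Il18rap, had ratios of 0.694 (0.540 to 0.889) and 0.489 (0.312 to 0.747). Under TMM scaling Il1rl2 came inside the 2-fold limit, at a log2 ratio of -0.98. Under median-of-ratios scaling Il1rl2 and Il18rap did so, at -0.97 and -0.9964. Il18r1 begins 133 bases after the end of Il1rl1, and the pair differed in direction under library-total scaling.

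**Figure D4:**
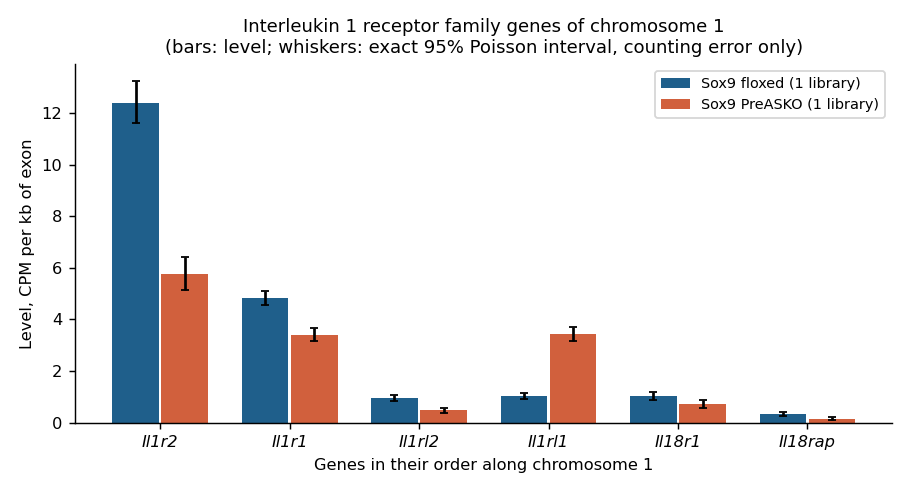
Level in CPM per kb of exon of the 6 IL-1 receptor family genes of chromosome 1, in their order along the chromosome, in the floxed and PreASKO libraries, with exact 95% Poisson intervals as whiskers. Il1rl1 is the gene whose PreASKO bar is the taller one, at 3.44 against 1.03 CPM per kb.

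ST2 needs the accessory chain encoded by Il1rap, which had 181 counts in floxed and 194 in PreASKO, a ratio of 1.39 (1.13 to 1.71). The count of Il1rl1 over Il1rap went from 1.48 to 3.56, and that of Il1r1 over Il1rap from 6.40 to 3.26. The count of Il1rl1 over that of its ligand gene Il33, which does not depend on scaling, went from 0.399 to 1.96, a 4.93-fold change (4.05 to 5.99). Cells known to carry ST2 include mast cells, innate lymphoid cells and regulatory T cells. Of 12 mast cell and basophil markers, 6 of the 7 with enough counts had a ratio above 1, with summed levels of 49.6 and 62.0 CPM. The ratios of these 7 ran from 0.652 for Hdc, the histamine-forming enzyme, to 1.91 for Cma1, a mast cell chymase, with 1.06 for Cpa3, a mast cell carboxypeptidase. Under the count minimum, Ms4a2, Mrgprb2 and the basophil protease Mcpt8 had 0 counts in floxed and 3, 4 and 19 in PreASKO, and Fcer1a, a chain of the IgE receptor, had 1 and 9. Of 10 markers of group 2 innate lymphoid cells, 3 of the 7 with enough counts had a ratio above 1, and summed levels were 78.8 and 63.2 CPM, of which Thy1, also a stromal marker, made up 52.6 and 40.0. Rora was the one past the 2-fold limit, with 273 and 54 counts and a ratio of 0.256, while Gata3 had 38 and 51 counts and Ptgdr2 0 and 6. Among the T cell markers, Foxp3, the marker of regulatory T cells, had 17 counts in floxed and 8 in PreASKO, a ratio of 0.608 (0.227 to 1.49). The part of mast cells, innate lymphoid cells and regulatory T cells in the Il1rl1 value was not tested.

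The starts of Il1rl1 and of its 3 neighbours past the 2-fold limit are shown because adjacent genes differed in direction, together with that of Il1b. Each line gives the 250 bases before an annotated start from RefSeq, build GRCm38.p6, read 5′ to 3′ on the strand of the gene. Capitals mark matches on either strand to TATAAA for the TATA box, AACAAT for SOX factors, AGATAA for GATA factors, TGANTCA for AP-1, TTCNNNGAA for STAT factors and GAGGAAG for PU.1.
Il1rl1 first start, chr1:40429320-40429569, forward strand: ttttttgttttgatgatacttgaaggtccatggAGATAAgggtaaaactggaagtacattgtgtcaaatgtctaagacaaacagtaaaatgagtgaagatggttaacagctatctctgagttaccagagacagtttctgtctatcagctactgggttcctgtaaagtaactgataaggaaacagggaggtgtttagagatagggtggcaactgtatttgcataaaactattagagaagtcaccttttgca
Il1rl1 second start, chr1:40439379-40439628, forward strand: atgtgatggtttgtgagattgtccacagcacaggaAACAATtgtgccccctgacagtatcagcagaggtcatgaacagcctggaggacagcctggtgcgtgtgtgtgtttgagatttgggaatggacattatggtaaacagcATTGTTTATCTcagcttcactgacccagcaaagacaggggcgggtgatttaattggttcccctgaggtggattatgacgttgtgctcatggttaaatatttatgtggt
Il1r2, chr1:40085843-40086092, forward strand: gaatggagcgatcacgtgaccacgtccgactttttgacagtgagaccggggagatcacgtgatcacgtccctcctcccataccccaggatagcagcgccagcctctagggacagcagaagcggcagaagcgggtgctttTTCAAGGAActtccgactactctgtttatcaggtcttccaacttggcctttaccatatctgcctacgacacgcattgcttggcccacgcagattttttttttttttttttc
Il1rl2, chr1:40324339-40324588, forward strand: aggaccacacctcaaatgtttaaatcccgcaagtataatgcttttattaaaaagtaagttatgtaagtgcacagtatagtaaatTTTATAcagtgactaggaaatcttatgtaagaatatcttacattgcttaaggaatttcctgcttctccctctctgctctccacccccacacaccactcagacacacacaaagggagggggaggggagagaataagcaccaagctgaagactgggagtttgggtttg
Il18rap, chr1:40515112-40515361, forward strand: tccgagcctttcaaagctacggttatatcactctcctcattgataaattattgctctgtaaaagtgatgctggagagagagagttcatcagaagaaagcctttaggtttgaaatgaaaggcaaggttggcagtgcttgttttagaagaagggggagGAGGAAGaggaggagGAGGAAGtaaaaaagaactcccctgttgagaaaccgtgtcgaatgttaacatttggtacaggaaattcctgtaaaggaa
Il1b, chr2:129371140-129371389, reverse strand: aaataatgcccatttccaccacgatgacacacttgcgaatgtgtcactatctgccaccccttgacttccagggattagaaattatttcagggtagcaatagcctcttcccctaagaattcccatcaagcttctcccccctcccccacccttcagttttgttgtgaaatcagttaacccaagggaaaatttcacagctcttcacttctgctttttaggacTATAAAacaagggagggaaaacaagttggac
Both starts shown for Il1rl1 have a GATA match, and the second has 2 SOX matches as well, one of which overlaps the GATA match. The starts shown need not be all starts of a gene. The annotated gene begins at 40404864 for Il1rl1 and at 40084692 for Il1r2, before the starts shown. Il1r2 has a STAT match, Il18rap has 2 PU.1 matches, Il1rl2 a TATA match 166 bases before the start and Il1b a TATA match 31 bases before it. Il4 and Il12a, also past the 2-fold limit, had 2 listed starts each with no match to any of these motifs, and are not shown. Promoters were listed for 50 members, with 63 starts. Of these starts, 15.9% held the GATA letters and 4.76% the SOX letters, against 9.99% and 9.42% of all 32851 starts. The shares were 15.9% and 12.4% for the TATA box, 15.9% and 6.75% for AP-1, 7.94% and 7.02% for STAT and 9.52% and 10.6% for PU.1. A match describes letters and not a bound site. Il1rl1 is known in mouse to use a distal start in mast cells and a proximal start in fibroblasts, and counts summed over a gene do not say which start was used.

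Other members also lie side by side, with gaps of at most 200 kb. Il17re and Il17rc, on chromosome 6 and separated by 696 bases, had ratios of 0.534 and 0.575. Il1a and Il1b, on chromosome 2, were both higher. Il2ra and Il15ra, also neighbours on chromosome 2, had ratios of 0.626 and 1.43.

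**Figure D5:**
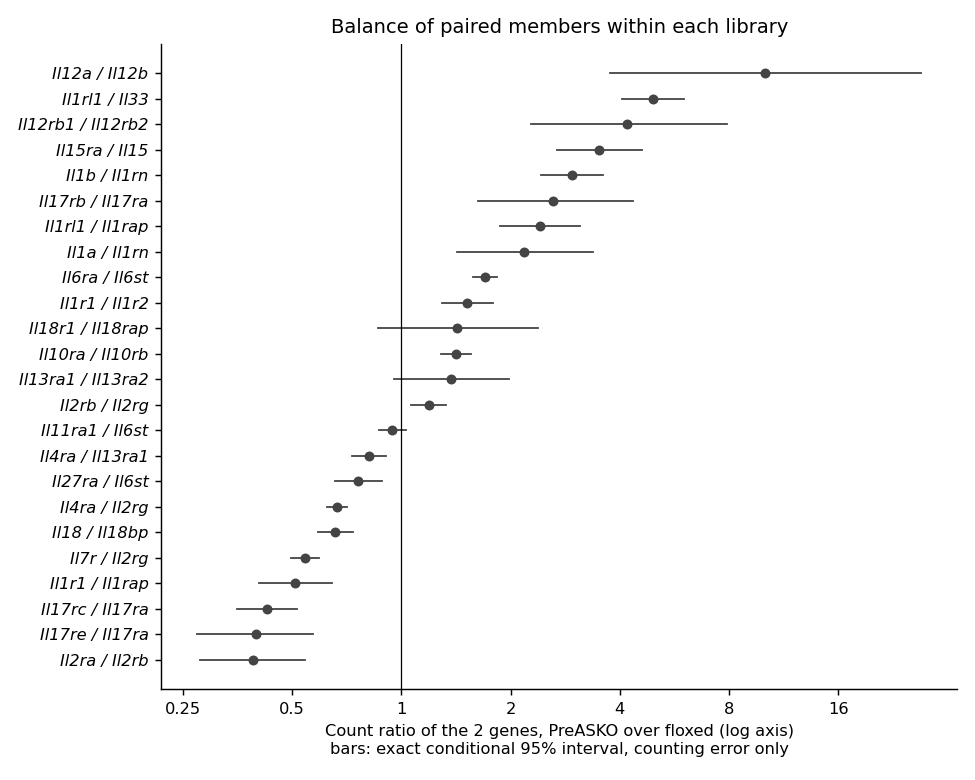
Change between libraries in the count ratio of 24 pairs of members that form a receptor, share a cytokine or oppose each other, PreASKO over floxed on a log axis, with exact conditional 95% intervals. Il12a over Il12b stands highest at 10.05 and Il2ra over Il2rb lowest at 0.390. Both of these pairs set a gene with raw counts only against a gene with repeat-distributed counts only.

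The remaining members gave few counts. Il20rb, Il20ra, Il23r, Il31ra and Il12b had between 20 and 99 counts over both libraries and intervals that hold 1. Il23a, Il22ra1, Il1rapl2, Il31, Il22, Il13 and Il21 had under 20. Il22ra1 had 8 counts in floxed and 0 in PreASKO and an interval of 0 to 0.757, which leaves out 1, but it lies under the count minimum. Another 19 interleukin names of RefSeq, among them Il5, Il2 and Il17a, are not in the table and were not analysed here.

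Signalling genes downstream of these receptors were read against the shares of all genes past the 2-fold limit, 7.79% higher and 15.2% lower. Most of these signalling genes had 100 or more counts, and the shares of all genes with as many were smaller, 4.03% and 8.44%. Of 23 genes for JAK kinases, STAT factors and their regulators, 0 were higher and 1 was lower by 2-fold or more, with a median log2 ratio of 0.17. The low one was Socs4, an inhibitor of cytokine signalling, with 634 counts in floxed and 119 in PreASKO and a ratio of 0.243 (0.198 to 0.295). Socs3, the feedback inhibitor of gp130, had 641 and 797 counts, a ratio of 1.61. Of 24 genes between IL-1 or IL-17 receptors and NF-kB, 0 were higher and 1, Traf3ip2, was lower, with a median of 0.05. Of 12 genes that process or release IL-1 family cytokines, 2 passed the limit upwards and 1 downwards, and the median was 0.17. The higher ones were the protease genes Prtn3, with 11 and 141 counts, and Elane, with 70 and 128. The lower one was the protease gene Ctsg, with 76 and 17. The inflammasome genes Nlrp3 and Pycard had ratios of 1.73 (1.55 to 1.93) and 1.76 (1.68 to 1.85), while Casp1, the protease that cleaves IL-1 beta, had one of 1.10 (0.993 to 1.21). Of 15 receptor chains and cytokines with other names that had enough counts, 1 was lower and 0 higher. This was Clcf1, a gp130 cytokine, with 100 and 14 counts. Tslp, a stromal cytokine that signals through Il7r, had 274 and 119 counts, a ratio of 0.561 (0.449 to 0.699).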

How the data were processed

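RNA was sequenced from GFP+ cells of 1 Sox9 floxed and 1 Sox9 PreASKO library, assigned by the genotype label. Raw counts per gene, as deposited by the authors, are whole numbers. Repeat-distributed counts, also deposited, are estimated counts that need not be whole. In 99.7% of cases the value came within 0.01 of a whole number. They were read as reads shared among several annotated places, which is an inference. They make up 49.1% of the floxed and 50.6% of the PreASKO total. Raw counts were the only kind for 16 of the 63 members, and repeat-distributed counts the only kind for 24. Among members past the 2-fold limit upwards, Il12a, Il1rl1 and Il12rb1 had repeat-distributed counts only. Raw counts made up 2.79% of those of Il1b, 6.19% of those of Il17rb and 7.08% of those of Il10ra. Per the file headers, the fold ratio that the authors deposited sets PreASKO over floxed, and the deposited table also holds its log2 value. The submitters' processing notes name mm10. Aligner, counter and use of strand: not given in the sources used here.

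Both counts were summed, rounded to whole numbers and divided by the library total. Genes needed 20 or more counts over both libraries. A 0 was replaced by 3 counts. Ratios carry the exact conditional (Clopper-Pearson) interval and levels the exact Poisson interval, both at 95%. Pairs of genes carry the conditional interval of an odds ratio. Molecular identifiers are not mentioned in the labels, and all intervals reflect counting error only. They take repeat-distributed counts as plain counts and leave out any error in those estimates. With 1 library per group no test was made. The calculation was tested on simulated data. Symbols were matched to GRCm38.p6 of RefSeq by gene ID for all 63 members, and exon lengths and overlaps came from GENCODE M21. Alternatives were other scalings, either count alone, pseudocounts, filters and the authors' deposited fold. TMM factors came from edgeR 4.0.16 and size factors from DESeq2 1.42.0 under R 4.3.3. Tables were handled with pandas 2.3.3 and numpy 2.4.6, intervals with scipy 1.17.1 and plots with matplotlib 3.10.9, under Python 3.11.15. Named members had 100 or more counts or were past 2-fold, and signalling genes past 2-fold with 100 or more counts were named. Socs3, Nlrp3, Pycard, Casp1, Tslp, Csf1, Csf1r, Ebi3, Serbp1 and the marker genes given singly were chosen after their values were seen, as were the gene pairs, the members under 100 counts and the motifs. The members and lists were chosen with earlier results of these data known.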

Additional observations from a re-analysis of the deposited data

How the results depend on the processing

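No paired analysis was possible because each genotype has 1 library, and for the same reason no replicate could be left out. No member past the 2-fold limit changed direction under the alternatives that gave it a value, but most of these could not have turned one. Each scaling shifts every log2 ratio by the same amount, smaller than the limit, and a pseudocount keeps the direction. Either kind of count alone could have turned a member. Raw counts alone gave a value to 5 of the 17 past the limit, and repeat-distributed counts alone to 15. Among all 56 members, the sign turned for 21 when scaled to the stromal markers, for 10 when scaled to the macrophage markers, and for Il21r alone with TMM and with median-of-ratios scaling. With raw counts alone, which gave a value to 25 members, it turned for Il1rn and Il4ra, to 0.45 and 0.099. Of the 17 members past the limit, 16 remained past it with TMM, 15 with median-of-ratios scaling, 15 with a pseudocount of 0.1, 10 with a pseudocount of 1 and 17 in the authors' deposited table. With a pseudocount of 1 the number lower was 5, by construction, since it draws low genes to equal levels, against 6.34% of all genes. Among members with 100 or more counts the number lower was 6. Scaling to the stromal markers gave 20 higher and 4 lower, with medians of 0.23 for ligands, 0.69 for receptor chains and 0.66 for antagonists and decoys. This brought Il34, Il18rap, Il7, Il15, Il9r, Il1r2 and Il1rl2 inside the limit. Scaling to the macrophage markers gave 3 higher and 22 lower, with medians of -1.14, -0.69 and -0.72, and brought Il10ra, Il12rb1 and Il1b inside it. These scalings move the median of all genes to 0.78 and -0.60. Raw counts alone gave 2 higher and 4 lower over the 25 members with enough of them, against 10.9% and 15.9% of all genes, and a median of 0.40 for 3 antagonists and decoys. Repeat-distributed counts alone brought Il10ra to 0.93 and Il7 to -0.80, inside the limit. Depth limits the members with few counts, since 3 counts correspond to 0.0796 CPM in floxed and 0.103 CPM in PreASKO.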
